A study of Mus musculus with 6 samples.

Results

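Toll-like receptors are membrane proteins of innate immune cells that bind molecules of microbes and, through the adaptors MYD88 and TRIF, switch on NF-kB and interferon regulatory factors. Surface members bind lipids and proteins of the microbial envelope, and endosomal members bind nucleic acids once these have been taken up and digested. In marrow they are known from monocytes, macrophages, neutrophils, dendritic cells and B cells.

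The 10 genes asked about were Tlr1, Tlr2, Tlr4, Tlr5 and Tlr6, taken as surface members, and Tlr3, Tlr7, Tlr8, Tlr9 and Tlr13, taken as endosomal members. They were chosen by gene symbol, as probe sets that carry exactly 1 symbol. Of the 10, 9 were measured, among 19938 genes with such a probe set, and Tlr5 was not analysed here. Each of the 9 had 1 probe set.

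The arrays came from a comparison of bone marrow of male mice of 10 weeks, 3 arrays labelled wild type and 3 labelled diabetic. The genotype labels give every animal as BKS.Cg with Leprdb/JNju, and differ in the signs +/+ for wild type and -/- for diabetic. Leprdb is the db allele of the leptin receptor gene, used as a model of obesity and type 2 diabetes. That stock name with +/+ is also a standard name of the strain, so the label does not give the alleles of the wild type animals beyond the word wildtype. Marrow had been flushed from the shafts of femurs and tibiae and the labels name no sorting step. The RNA was therefore that of mixed cells, and in such bulk samples fewer cells of a type and less RNA per cell cannot be told apart. The labels do not say if the RNA of an array came from 1 animal or from several, so p-values measure only the spread between these samples, which may be technical.

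The log2 values had been through robust multi-array averaging (RMA), which equalises the arrays at the level of single probes. The probe set values used here were close between arrays but not equal in distribution. Array medians lay between 7.67 and 7.73, correlations between arrays over 35556 probe sets between 0.990 and 0.994, and 3 arrays per group limit the precision. The mean log2 signal of a late neutrophil list (12 genes such as Ly6g and S100a8) lay between 12.94 and 13.15 and that of an erythroid list (7 genes such as Alas2) between 11.42 and 12.07. Both are lineages of marrow. A level filter kept genes whose mean over the 6 arrays reached 7.50 (the 40th percentile over probe sets that have a symbol), and the 12029 genes left were tested with limma. Of the 9 receptors, 8 passed this level filter. Tlr6, at 8.16, was the lowest above it, and Tlr3, at 6.67, lay below it and was read from the same fit without the filter. All 8 were above the filter in each group. Levels of different probe sets are not comparable, so the receptors are not ranked by level.

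No Toll-like receptor differed between diabetic and wild type marrow past the threshold (limma, Benjamini-Hochberg adjusted p under 0.05), where 0.432% of all genes tested did. With array weights, whose estimate did not converge, Tlr7, Tlr9 and Tlr13 passed, as did 1878 of all genes. The differences of the 9 receptors without weights ran from -0.28 to 0.26 on the log2 scale. All 4 surface members had a higher mean in diabetic marrow, by so little for Tlr4 that its sign turned under other scalings, and among the 5 endosomal members Tlr3, Tlr7 and Tlr9 had a lower mean while Tlr8 and Tlr13 had a higher one. At an unadjusted p under 0.05 there were 4 of 9, Tlr6 higher and Tlr3, Tlr7 and Tlr9 lower, against 3.98% of all genes tested that were higher and 3.20% that were lower by that rule. The adjusted p values of the 8 receptors above the filter ran from 0.604 for Tlr6 to 0.997 for Tlr4 in limma, and that of Tlr3 was 0.731 in the fit without the filter. The median difference of the 9 was 0.08, and that of all genes tested was 0.00461.

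**Figure D1:**
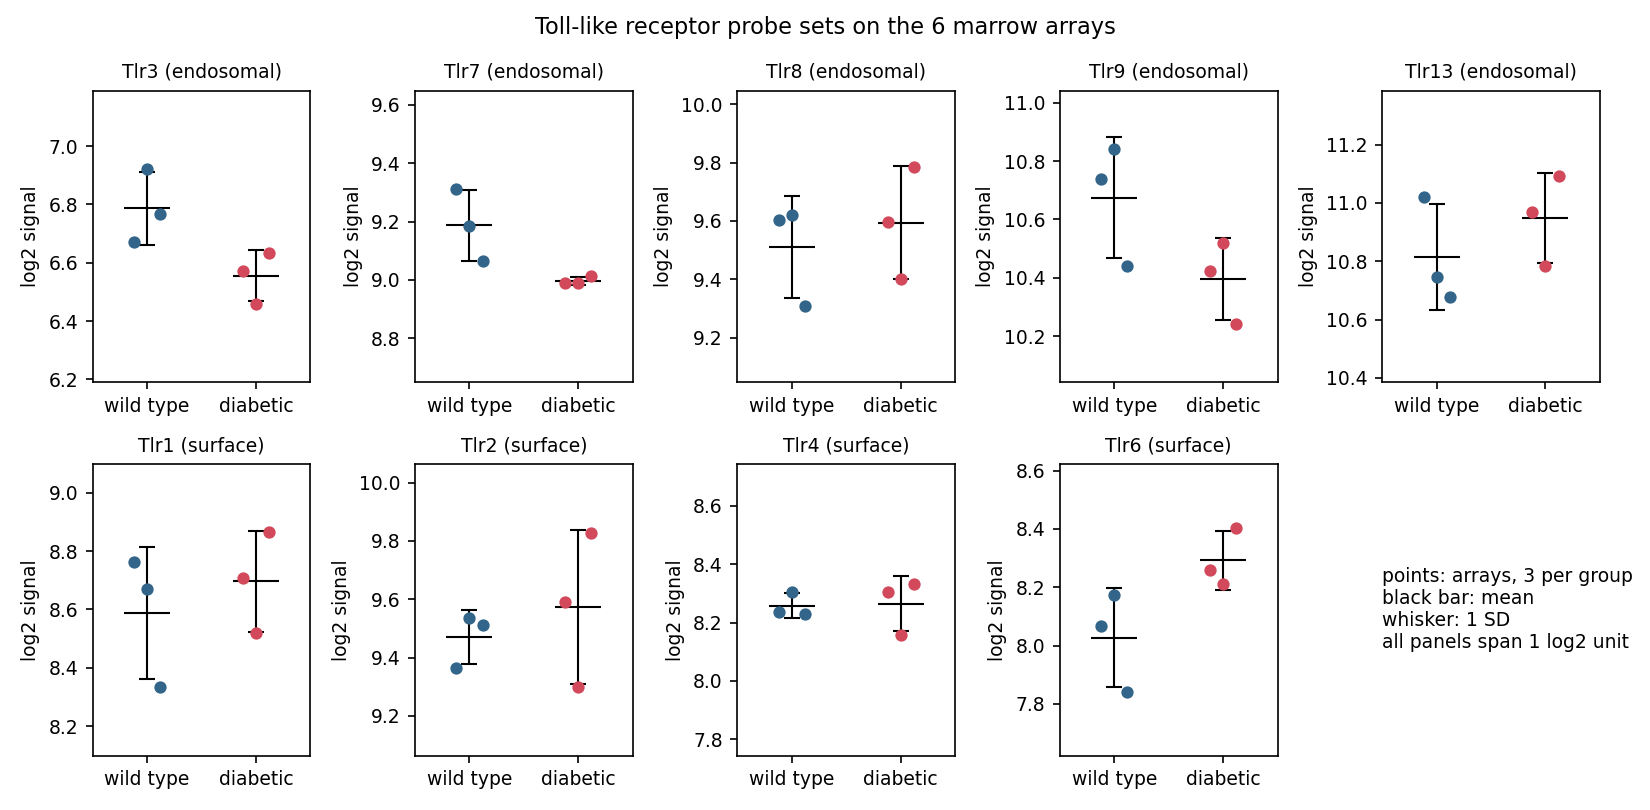
Log2 signal (vertical axis) of each measured Toll-like receptor on the 3 wild type arrays (blue) and the 3 diabetic arrays (red). Black bars are group means and whiskers 1 SD, and each panel spans 1 log2 unit. The groups are apart for Tlr3, Tlr7 and Tlr6 and overlap for the other 6.

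Tlr3, Tlr7 and Tlr9 belong to the endosomal group that reads nucleic acids. Tlr3 binds double-stranded RNA and signals through TRIF alone. Its log2 signal was 6.67, 6.92 and 6.77 in wild type and 6.57, 6.46 and 6.63 in diabetic marrow. The highest diabetic value was below the lowest wild type value. The log2 difference was -0.23 ± 0.08 (SE, n = 3 per group), with a 95% interval from -0.42 to -0.04, in a range of signals where a probe set may carry little more than background.

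Tlr7, a sensor of single-stranded RNA used by plasmacytoid dendritic cells and B cells, had log2 signals of 9.31, 9.18 and 9.07 in wild type and 8.990, 8.988 and 9.01 in diabetic marrow. The diabetic arrays lay within a narrow band (SD 0.01, n = 3) just below the lowest wild type array, and the wild type arrays spread more widely (SD 0.12, n = 3). The log2 difference was -0.19 ± 0.07 (SE, n = 3 per group) and the limma adjusted p 0.637. Wild type marrow was thus 1.14-fold above diabetic marrow, and the 95% interval of the log2 difference reached from -0.36 to -0.02.

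Tlr9, which binds DNA rich in unmethylated CpG, had log2 signals of 10.74, 10.84 and 10.44 in wild type and 10.42, 10.52 and 10.24 in diabetic marrow. The groups overlapped, because the lowest wild type array lay below the highest diabetic array. Its difference of -0.28 ± 0.12 (SE, n = 3 per group) was the furthest from 0 among the 9, with a 95% interval from -0.55 to -0.01 and a limma adjusted p of 0.678.

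Groups that did not overlap were seen for 3 of the 9 receptors, Tlr3 and Tlr7 lower and Tlr6 higher in diabetic marrow, and for 12.4% of all genes tested, 5.39% lower and 6.97% higher. The 2 among the 8 receptors above the filter were Tlr7 and Tlr6.

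The other endosomal members, Tlr8 and Tlr13, did not share the direction of Tlr3, Tlr7 and Tlr9. Tlr8 is encoded beside Tlr7 on chromosome X, with 0 protein-coding genes between them in the RefSeq gene table, and detects products of RNA breakdown in human cells. Its log2 signal was 9.60, 9.62 and 9.31 in wild type and 9.60, 9.40 and 9.79 in diabetic marrow, a difference of 0.08 ± 0.12 (SE, n = 3 per group) with wide overlap. Without wild type replicate 3 the difference of Tlr8 was -0.0177, and without diabetic replicate 3 it was -0.0121, so that its sign rested on single arrays. Tlr13, a mouse receptor for bacterial ribosomal RNA that has no human counterpart, lies on chromosome X as well. Its log2 signal was 11.02, 10.75 and 10.68 in wild type and 10.97, 10.78 and 11.09 in diabetic marrow. The difference was 0.13 ± 0.11 (SE, n = 3 per group), and the groups overlapped. The difference of Tlr13 ran from 0.06 without diabetic replicate 3 to 0.24 without wild type replicate 1.

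Among surface members, Tlr6 had the largest difference. It pairs with TLR2 to bind diacylated lipopeptides. Its log2 signal was 8.07, 8.17 and 7.84 in wild type and 8.26, 8.21 and 8.40 in diabetic marrow, so every diabetic array lay above every wild type array. The difference was 0.26 ± 0.10 (SE, n = 3 per group), or 1.20-fold, with a 95% interval from 0.04 to 0.49. Its limma adjusted p, 0.604, was the lowest of the 9. The difference of Tlr6 was 0.12 with array weights and 0.17 without wild type replicate 3.

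Tlr1, the gene next to Tlr6 on chromosome 5 and its close paralog, encodes the TLR2 partner for triacylated lipopeptides. It had log2 signals of 8.76, 8.67 and 8.33 in wild type and 8.71, 8.52 and 8.86 in diabetic marrow, a difference of 0.11 ± 0.13 (SE, n = 3 per group). The groups overlapped, and without wild type replicate 3 the difference was -0.0183. Signal shared between the paralogs Tlr1 and Tlr6 on the array was not tested.

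Tlr2, the common partner in both lipopeptide receptors, had log2 signals of 9.36, 9.54 and 9.51 in wild type and 9.59, 9.30 and 9.83 in diabetic marrow. The diabetic arrays lay on both sides of the wild type arrays. The difference was 0.10 ± 0.13 (SE, n = 3 per group), with an interval from -0.19 to 0.40, and it was -0.0256 without diabetic replicate 3. Tlr4, the lipopolysaccharide receptor, had the smallest difference, 0.00699 ± 0.07 (SE, n = 3 per group). Its log2 signal was 8.24, 8.31 and 8.23 in wild type and 8.31, 8.16 and 8.33 in diabetic marrow, and the 95% interval of its fold change ran from 0.901 to 1.12. The sign of Tlr4 turned in 7 of 14 alternatives, among them both other scalings of the arrays, so it has no settled direction. The interval for Tlr4 was the narrowest on the log2 scale among the 9.

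**Figure D2:**
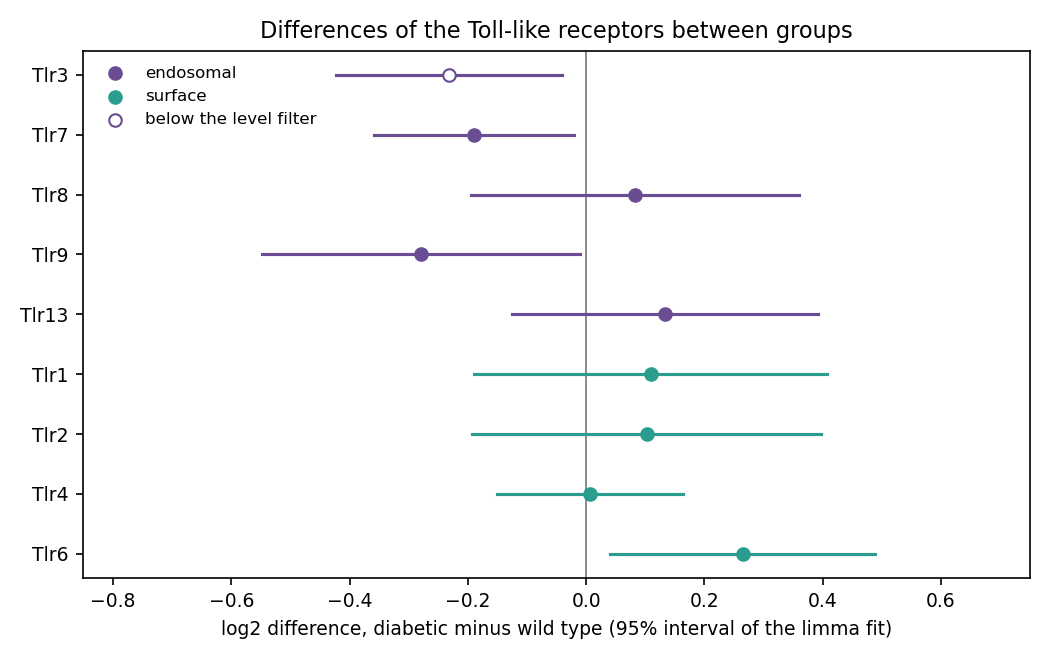
Log2 difference of each receptor, diabetic minus wild type (horizontal axis), with the 95% interval of the limma fit before any adjustment for the number of genes, n = 3 per group. Endosomal members are purple, surface members green and Tlr3, below the level filter, is open. The intervals of Tlr3, Tlr7, Tlr9 and Tlr6 leave out 0 and those of the other 5 include it.

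The endosomal and surface members were then set against each other. The mean log2 difference over the 5 endosomal genes was -0.10, with a range from -0.28 to 0.13, and over the 4 surface genes it was 0.12, with a range from 0.00699 to 0.26. By array, the mean log2 signal of the endosomal genes was 9.47, 9.46 and 9.25 in wild type and 9.31, 9.23 and 9.35 in diabetic marrow, with overlap. That of the surface genes was 8.61, 8.67 and 8.48 in wild type and 8.72, 8.55 and 8.86 in diabetic marrow, also with overlap.

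Within each array, the endosomal mean minus the surface mean was 0.86, 0.79 and 0.77 in wild type and 0.59, 0.68 and 0.50 in diabetic marrow. Here the groups were apart, with every diabetic array below every wild type array. Its mean was 0.81 ± 0.05 over the wild type arrays and 0.59 ± 0.09 over the diabetic arrays (SD, n = 3 each), a difference of -0.22 ± 0.06 (SE over arrays). With Tlr3 left out, because it lay below the level filter, the contrast was 1.56, 1.43 and 1.39 in wild type and 1.28, 1.38 and 1.18 in diabetic marrow, a difference of -0.18 ± 0.08 (SE over arrays). The size of the contrast in 1 group has no meaning of its own, since it depends on the probes. No p is given for these sums, since the genes were chosen with results of these arrays known. Within the endosomal class the members went both ways, so the contrast does not describe each of them.

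**Figure D3:**
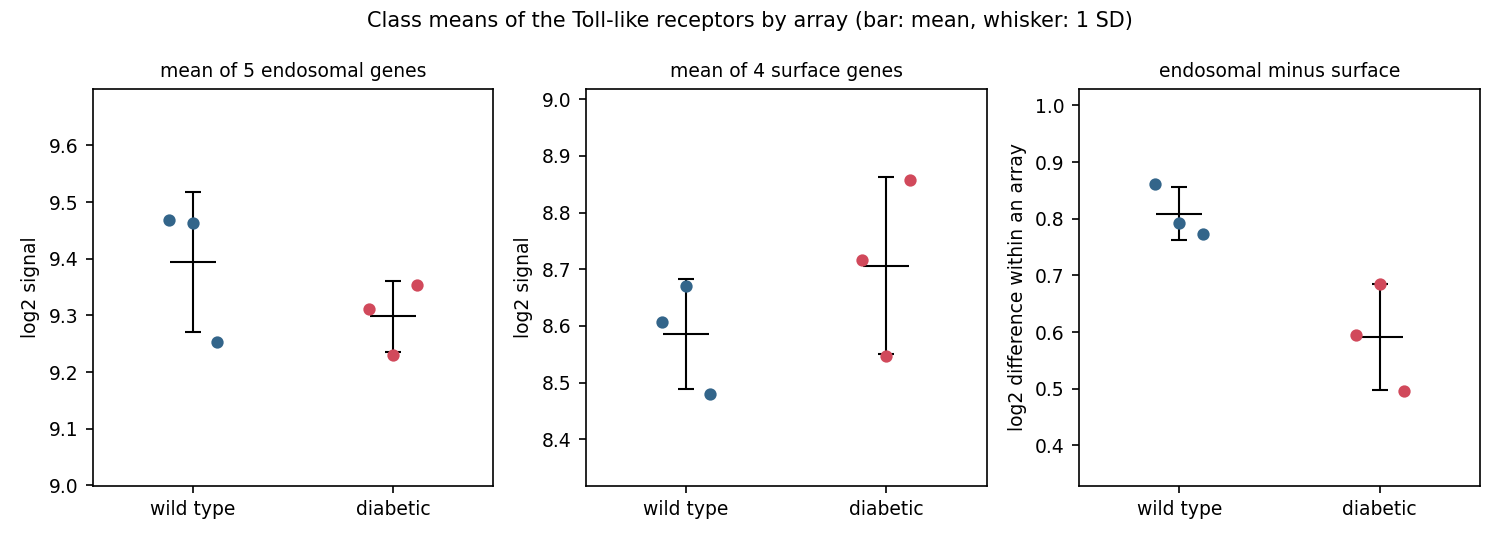
Mean log2 signal of the 5 endosomal genes (left), of the 4 surface genes (middle) and their difference within each array (right), for 3 wild type (blue) and 3 diabetic arrays (red), with the group mean and 1 SD. The class means overlap between groups, while the difference lies between 0.77 and 0.86 in wild type and between 0.50 and 0.68 in diabetic marrow.

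The receptors also varied together between replicates. Among the diabetic arrays, replicate 3 was the highest and replicate 2 the lowest for 8 of the 9 receptors, an order seen for 23.6% of all genes tested. Tlr9 was the exception, with replicate 2 highest and replicate 3 lowest. Of the wild type arrays, replicate 3 was the lowest for 7 of the 9. It was also the lowest for the late neutrophil, B cell precursor and interferon receptor lists, among others. The share of all genes with wild type replicate 3 lowest was not computed. SDs within a group ran from 0.01 to 0.26. That order of the 8 receptors was also the order of several marker lists, those of late neutrophils (13.14, 12.94 and 13.15), conventional dendritic cells, T and NK cells, and eosinophils, basophils and mast cells. It was the order of the adaptor and kinase list and the interferon receptor list as well. The order of Tlr9 was that of the B cell precursor list (10.00, 10.10 and 9.76), the plasmacytoid dendritic cell list, the megakaryocyte list and the nucleic acid handling list. Members of the plasmacytoid list differed in it. Spib had that order, at 11.71, 11.93 and 11.19, while Siglech was highest on replicate 3, at 9.88, 10.01 and 10.05. Neither order was particular to 1 cell type.

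Levels of cell type markers moved beside some receptors. The level and the shift of a list are means over all its genes with a probe set, also those below the level filter. Counts are over its tested members. All 9 tested members of the B cell precursor list (Rag1, Dntt, Blnk and others) had a lower mean in diabetic marrow. Over its 11 genes with a probe set, the list had means of 10.76, 10.50 and 9.68 in wild type. Wild type replicate 3 was thus low for this list, as for 7 of the 9 receptors, Tlr9 among them. On the diabetic arrays the means of the list were 10.00, 10.10 and 9.76, so the groups overlapped, and 0 of its tested members had groups apart. The shift of the list was -0.36 ± 0.34 (SE over arrays). None of the 9 passed the adjusted threshold. Their differences ran from -0.60 ± 0.21 for Rag1 to -0.12 ± 0.36 for Igll1 (SE, n = 3 per group). In the plasmacytoid dendritic cell list, 6 of 7 tested members had a lower mean. Its level lay between 9.83 and 9.97 in wild type and between 9.67 and 9.80 in diabetic marrow, with Cox6a2 at -0.34 ± 0.06 and Bst2, which interferon also induces, at -0.27 ± 0.06. Siglech, a defining surface marker of these cells, was at -0.07 ± 0.07.

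In the conventional dendritic cell list 5 of 7 tested members had a lower mean, where 47.7% of all genes tested did. The level of the list lay between 8.30 and 8.38 in wild type and between 8.07 and 8.23 in diabetic marrow. Itgax was at -0.37 ± 0.07 and Flt3 at 0.23 ± 0.06, both with groups apart, and Zbtb46 was at 0.000427 ± 0.06. The monocyte and macrophage list had 10 of 14 tested members lower, and 1 of them, Mertk, passed the adjusted threshold, at -0.47 ± 0.07 (SE, n = 3 per group), where 0.333% of all genes tested did in that direction. Its members went both ways. The complement gene C1qb was at -0.62 ± 0.12 and Axl at -0.53 ± 0.09, Csf1r, a defining marker, at -0.00869 ± 0.07, and Cd163 at 0.34 ± 0.06, Cx3cr1 at 0.20 ± 0.09 and Adgre1 at 0.27 ± 0.14. The groups were apart for 8 members that were lower, Mertk among them, and for 2 that were higher, Cd163 and Cx3cr1. Of all genes tested, 5.39% had groups apart and lower and 6.97% had groups apart and higher. The level of the list lay between 9.86 and 9.99 in wild type and between 9.68 and 9.79 in diabetic marrow. The late neutrophil list overlapped between groups, with 12.97 to 13.07 in wild type and 12.94 to 13.15 in diabetic marrow, and 7 of 12 members higher. The mature B cell list overlapped as well, from 8.54 to 9.50 in wild type and from 9.12 to 9.30 in diabetic marrow. The plasma cell list did not overlap, with 8.93 to 9.18 in wild type and 8.73 to 8.75 in diabetic marrow. All 6 of its tested members had a lower mean, and 0 passed the adjusted threshold. The shift of the plasma cell list was -0.30 ± 0.08 and that of the plasmacytoid list -0.19 ± 0.06 (SE over arrays). In the plasma cell list Derl3 was at -0.35 ± 0.11, Sdc1 at -0.23 ± 0.08 and Xbp1 at -0.06 ± 0.07. The members furthest from 0, Jchain at -0.69 ± 0.49 and Irf4 at -0.51 ± 0.31, had overlapping groups. Of all the marker lists named here, the lowest mean on any array was 8.07, above the level filter. The part of these cells in the differences of the receptors was not tested.

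The interferon response can be set off by some Toll-like receptors and is known to raise Tlr3 and Tlr7 in other settings. The level of its list, over 19 genes with a probe set, lay between 9.60 and 10.03 in wild type and between 8.78 and 8.86 in diabetic marrow. Of its 18 tested members, 12 fell past the adjusted threshold, against 0.333% of all genes tested, and 0 rose. The 12 were Ifit3, Rtp4, Oas2, Usp18, Oasl2, Xaf1, Zbp1, Oasl1, Mx1, Irf9, Cmpk2 and Stat2. That list was chosen with this result known. Leaving out wild type replicate 1, 2 or 3 in turn gave 14, 5 and 13 such genes, and leaving out diabetic replicate 1, 2 or 3 gave 1, 0 and 1. Within wild type, replicate 2 was the highest and replicate 1 the lowest array both for the interferon response list and for Tlr3. For Tlr7, replicate 1 was the highest and replicate 3 the lowest. Within diabetic marrow the orders differed. The list was highest on replicate 1 and lowest on replicate 3, while Tlr3 and Tlr7 were highest on replicate 3 and lowest on replicate 2. The part of the interferon response in the receptor differences was not tested.

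**Figure D4:**
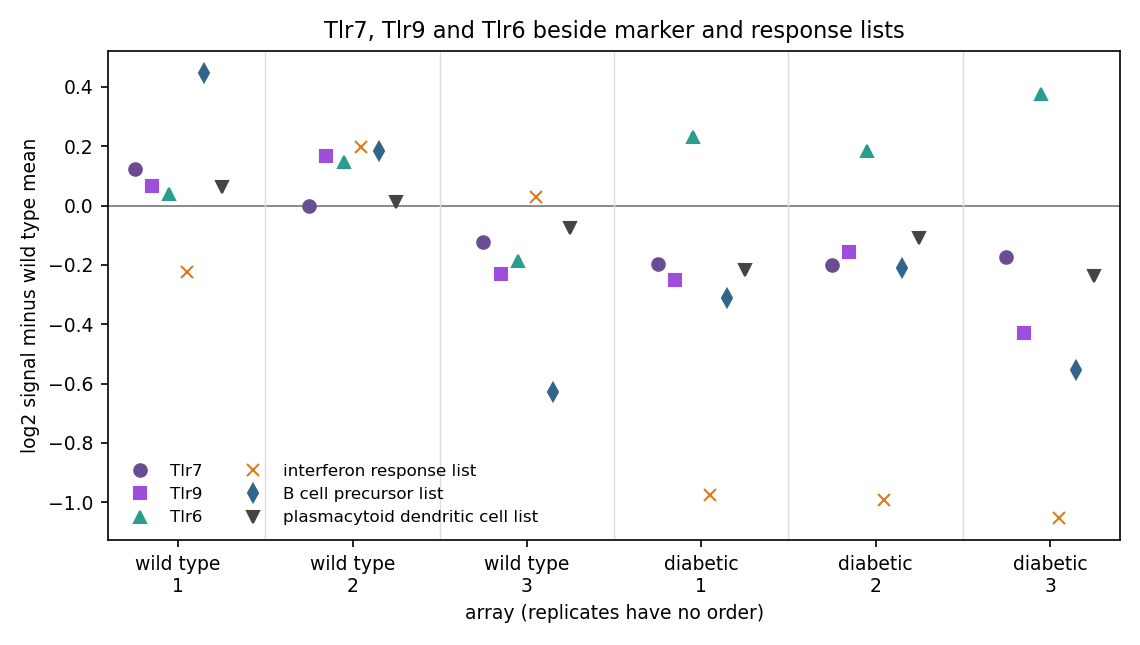
Log2 signal of Tlr7, Tlr9 and Tlr6, and mean log2 signal of 3 gene lists, on each array, each minus its own wild type mean (vertical axis). The interferon response list is near -1 on the diabetic arrays, the B cell precursor list is low on wild type replicate 3 and on the diabetic arrays, and Tlr6 is above 0 on every diabetic array.

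Promoter windows from RefSeq (GRCm38.p6, 250 bases before to 50 after a gene's start) were read for the receptors, and 7 of the 9 matched by symbol, with 9 windows in all. Those of Tlr3, Tlr9 and Tlr6 are shown, because these are the receptors with an unadjusted p under 0.05 that matched. The Tlr3 window is chr8:45410331-45410630, that of Tlr9 chr9:106222348-106222647 and that of Tlr6 chr5:64959117-64959416, the first of 2 Tlr6 windows. Tlr3 and Tlr6 lie on the minus strand and Tlr9 on the plus strand. Each is written 5′ to 3′ along its gene, and capitals mark the motif matches named in the next paragraph.
Tlr3: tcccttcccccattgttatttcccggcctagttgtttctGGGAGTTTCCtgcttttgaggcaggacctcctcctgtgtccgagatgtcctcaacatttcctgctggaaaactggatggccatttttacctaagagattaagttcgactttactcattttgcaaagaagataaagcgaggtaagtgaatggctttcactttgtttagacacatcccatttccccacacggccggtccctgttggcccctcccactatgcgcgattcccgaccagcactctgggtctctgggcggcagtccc
Tlr9: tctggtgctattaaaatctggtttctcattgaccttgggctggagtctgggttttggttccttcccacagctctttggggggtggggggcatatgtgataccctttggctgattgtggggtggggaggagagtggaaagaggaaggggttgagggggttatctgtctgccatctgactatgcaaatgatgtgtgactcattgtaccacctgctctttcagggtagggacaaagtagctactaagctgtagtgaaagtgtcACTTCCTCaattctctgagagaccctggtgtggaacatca
Tlr6: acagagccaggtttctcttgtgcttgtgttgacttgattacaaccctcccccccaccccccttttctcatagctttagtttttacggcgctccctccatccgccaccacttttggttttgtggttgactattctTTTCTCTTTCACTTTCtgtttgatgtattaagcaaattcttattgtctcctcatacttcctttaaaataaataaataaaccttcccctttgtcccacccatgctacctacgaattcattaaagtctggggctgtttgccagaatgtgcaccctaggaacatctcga

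Of the motifs searched on both strands, the core of the interferon-stimulated response element (GAAA, any 2 bases, GAAA) was found in 1 receptor, Tlr6. It had 2 overlapping matches on the opposite strand, at positions -116 and -110 with the start counted as 0, and its second window had none. This motif is held by 3.44% of all 32851 windows of that length. The NF-kB motif (GGGA, any 2 bases, TTCC) was found in Tlr3, at position -211, and is held by 1.47% of all windows. The PU.1 motif GAGGAAGT, of a factor of myeloid and B cells, was found in Tlr9 at position 10 on the opposite strand and in the first Tlr1 window at position -23, and is held by 3.20% of all windows. Windows of Tlr2, Tlr8 and Tlr13 held none of these letters. A match is a description of the letters and not a binding site.

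The accessory proteins of the receptors followed, from lists of the pathway. Co-receptors had 5 tested members, of which 0 passed the adjusted threshold in either direction, with a median difference of -0.13. Ly96, which encodes the MD-2 subunit that lets TLR4 bind lipopolysaccharide, had log2 signals of 10.02, 10.098 and 10.097 in wild type and 9.73, 9.72 and 9.86 in diabetic marrow. The groups were apart, and the difference of Ly96 was -0.30 ± 0.06 (SE, n = 3 per group), and its limma adjusted p was 0.187. Ly86, or MD-1, the partner of the TLR4 homologue CD180, was at 11.94, 11.96 and 11.71 in wild type and 11.57, 11.46 and 11.64 in diabetic marrow, also apart (limma adjusted p = 0.426). Cd180 itself was at -0.13 ± 0.12 and Lbp, the lipopolysaccharide-binding protein, at 0.12 ± 0.08. Cd14, which hands lipopolysaccharide to TLR4, lay below the level filter, with 7.16, 7.08 and 7.11 in wild type and 7.67, 7.34 and 7.14 in diabetic marrow.

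The folding and traffic list holds the chaperones that carry receptors to their compartment and the proteases that cut endosomal receptors. Of its 12 tested members 10 had a lower mean in diabetic marrow, where 47.7% of all genes tested did, and 0 passed the adjusted threshold. The median difference was -0.08. Unc93b1, which escorts all endosomal members, had log2 signals of 11.50, 11.49 and 11.16 in wild type and 11.24, 11.17 and 11.15 in diabetic marrow. Wild type replicate 3 was low for it and lay below 2 of the diabetic arrays, and the difference of Unc93b1 was -0.20 ± 0.10 (SE, n = 3 per group), or -0.31 without that array. Hsp90b1, the chaperone gp96 that folds nearly every Toll-like receptor, was at -0.16 ± 0.06 and its co-chaperone gene Cnpy3 at -0.11 ± 0.07. Lgmn, a protease that cuts endosomal receptors, was at 9.79 on each array in wild type and 9.58, 9.74 and 9.44 in diabetic marrow, with groups apart and a difference of -0.20 ± 0.08 (SE, n = 3 per group).

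Adaptors and kinases were nearly level, with 9 of 16 tested members higher, 7 lower and a median difference of 0.03, and 0 passed the adjusted threshold. Myd88, the adaptor of every receptor here but TLR3, was at 11.16, 11.09 and 11.04 in wild type and 11.20, 11.05 and 11.41 in diabetic marrow, with overlap. Ikbke, a kinase that phosphorylates interferon regulatory factors, was at 0.21 ± 0.09 (SE, n = 3 per group), Ikbkb, a kinase of the NF-kB inhibitor, at 0.14 ± 0.08 and Ticam2, an adaptor of TLR4, at 0.12 ± 0.06. Their adjusted p values lay between 0.691 for Ikbke and 0.849 for Ikbkb in limma.

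In the list of transcription factors, 1 of 9 tested members passed, lower in diabetic marrow, where 0.333% of all genes tested did. Irf7, which carries the signal of TLR7 and TLR9 to type I interferon genes, was at 10.54, 11.17 and 11.06 in wild type and 9.82, 9.62 and 9.44 in diabetic marrow, with the groups well apart. Its log2 signal fell by 1.30 ± 0.17 (SE, n = 3 per group; limma adjusted p = 0.0260), and it is also an interferon-induced gene. That call was lost without wild type replicate 2 (limma adjusted p of Irf7, 0.117) and without diabetic replicate 1, 2 or 3 (0.121, 0.132 and 0.122). The other interferon regulatory factors of the pathway did not pass, with Irf1 at -0.27 ± 0.11, Irf3 at -0.05 ± 0.08, Irf5 at 0.04 ± 0.08 and Irf8 at 0.00288 ± 0.10. Of the NF-kB subunits Rel was at -0.17 ± 0.11 and Relb at -0.08 ± 0.06. Irf1 was at -0.14 without diabetic replicate 2 and at -0.13 as the mean of its 2 probe sets. The list's median difference was -0.05.

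Inhibitors of the pathway had 11 tested members, 6 with a higher and 5 with a lower mean, a median difference of 0.01, and 0 past the adjusted threshold. Socs1, a feedback inhibitor of cytokine and Toll-like receptor signalling, had groups apart, with 9.08, 9.22 and 9.14 in wild type and 8.90, 8.80 and 8.92 in diabetic marrow and a difference of -0.27 ± 0.07 (SE, n = 3 per group). Trafd1, a feedback inhibitor that interferon induces, was at -0.34 ± 0.08, also with groups apart, while Irak3, or IRAK-M, was at 0.15 ± 0.08 and Sigirr at 0.11 ± 0.07. Nfkbia, the NF-kB inhibitor that NF-kB itself induces, was at 0.13 ± 0.13.

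The list of cytokine genes that the receptors switch on had 15 genes with a probe set, of which 8 passed the level filter and were tested. Of the 8, 6 had a higher and 2 a lower mean, with a median difference of 0.32. Without the level filter the median difference of the list was 0.07, so its size rests on the filter. Of the 8 tested, 1 fell past the adjusted threshold, where 0.333% of all genes tested did, and 0 rose, where 0.0998% of all genes did. Cxcl10, a chemokine that interferon also induces, was at 8.55, 8.66 and 8.88 in wild type and 7.87, 7.76 and 8.06 in diabetic marrow. The groups were apart, and the log2 signal of Cxcl10 fell by 0.80 ± 0.11 (SE, n = 3 per group; limma adjusted p = 0.0286). Without wild type replicate 2 the limma adjusted p of Cxcl10 was 0.138, and without diabetic replicate 1, 2 or 3 it was 0.197, 0.132 and 0.0730, so the call was lost in each of these.

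Cxcl2, a neutrophil chemokine, was at 7.72, 8.11 and 7.19 in wild type and 9.59, 9.12 and 7.85 in diabetic marrow. Diabetic replicates 1 and 2 were high and replicate 3 lay within the wild type range, and the difference of 1.18 ± 0.42 (SE, n = 3 per group) did not pass (limma adjusted p = 0.600). Ccl3, a chemokine of monocytes, had the same 2 diabetic arrays high, with 10.87, 10.28 and 10.00 in wild type and 11.76, 11.45 and 10.32 in diabetic marrow, and a difference of 0.79 ± 0.37 (SE, n = 3 per group). Ptgs2, the inducible cyclooxygenase gene, was at 0.71 ± 0.44. Il1b, which encodes interleukin 1 beta, had groups apart, with 9.79, 10.34 and 10.19 in wild type and 11.14, 10.49 and 10.42 in diabetic marrow and a difference of 0.58 ± 0.21. The difference of Il1b was 0.35 without diabetic replicate 1. Tnf, the classical NF-kB target, was at 0.07 ± 0.06.

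**Figure D5:**
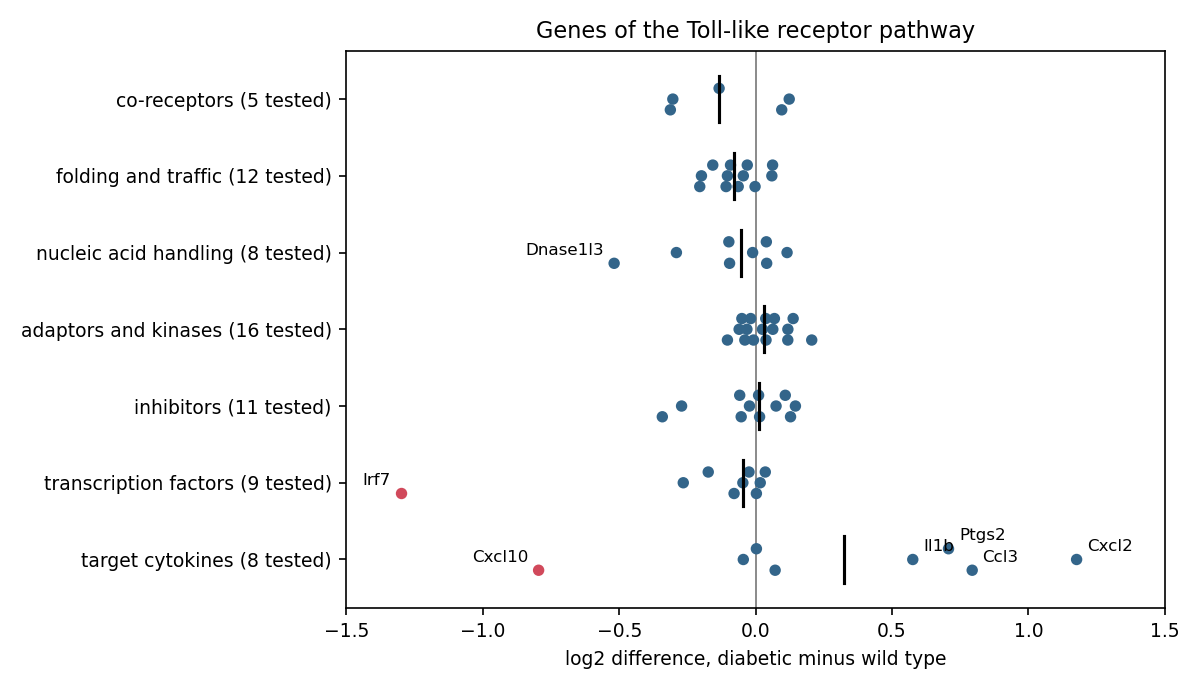
Log2 difference, diabetic minus wild type (horizontal axis), of the tested genes in 7 pathway lists, with n = 3 arrays per group. Black lines are list medians, red points passed an adjusted p of 0.05 and blue points did not. Irf7 and Cxcl10 are the 2 red points, and 4 target cytokine genes lie above 0.5 without passing.

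The genes whose pattern over the 6 arrays was most like that of Tlr7 were Bcat1, Rai1, Ifi30, Kif26a and Slc7a6os, with Pearson r between 0.979 and 0.992. For Tlr6 they were Bbs9, Lats2, Glt1d1, Pigv and Sgk1, with r between 0.983 and 0.994. These are descriptions over 6 arrays, and 18 genes exceeded an r of 0.95 with Tlr7 and 61 with Tlr6, so the first 5 stand in a longer series. Among those like Tlr7, Ifi30, a lysosomal reductase that interferon gamma induces, was at -0.36 and had groups apart. Since Ifi30 was picked for its likeness to Tlr7, whose groups were apart as well, that separation adds nothing of its own.

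Outside the 10 receptors asked about, Tlr12, a mouse endosomal receptor for profilin of parasites, was measured too. It lay below the level filter, at 7.18, 7.04 and 7.09 in wild type and 7.16, 7.12 and 7.27 in diabetic marrow, and the groups overlapped.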

How the data were processed

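Bone marrow RNA of 3 wild type and 3 diabetic mouse samples, grouped by sample title, was read on 1 array each. The authors deposited log2 signals, 1 per probe set. The submitters' processing notes name RMA and Affymetrix Expression Console. Its version and the genome build were not given in the sources used here. RMA equalises the probe signals of the arrays, so a shift shared by most genes cannot be seen.

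Of 35556 probe sets, 21789 carried 1 gene symbol and gave 19938 genes, each read from its set with the highest mean. Genes with a mean at or above 7.50, the 40th percentile of probe sets with a symbol, were compared in R 4.3.3 with limma 3.58.1 (lmFit, then eBayes), with no covariate. Files were read with the data.table package (version 1.17.8). P-values were adjusted by Benjamini-Hochberg over 12029 genes. Levels carry the SD over 3 arrays and differences the SE of the fit, while sums over genes carry the SE over arrays and no p. Motifs were matched in RefSeq promoter windows, and figures drawn with matplotlib 3.10.9 in Python 3.11.15. The test was tested on simulated data.

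The members, lists and rules were chosen with earlier results of these data known. The rule for named genes took the receptors, list members past the threshold or otherwise up to 4 with the smallest p, up to 2 markers per list, and 5 genes most like the endosomal and the surface receptor with the smallest p. Further genes were named after their values were seen, and 1 allele of the genotype label is not reported here. Alternatives were other filters, scalings, probe set rules, variance settings, thresholds, a replicate block and leaving out each array.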

Additional observations from a re-analysis of the deposited data

How the results depend on the processing

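The 3 arrays per group limit the precision, and Tlr3 has the further limit of a signal below the level filter.

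No receptor passed an adjusted p of 0.05 when 1 array was left out, nor with other filters, scalings, probe set rules, eBayes settings, an adjusted p of 0.10 or the replicate block. With array weights 3 passed, Tlr9 at -0.42, Tlr7 at -0.19 and Tlr13 at 0.21, while Tlr8 was at -0.0108 and Tlr4 at -0.00992. The estimate of those weights did not converge, wild type replicate 2 had a weight of 11.7 against 0.251 to 2.59 for the others, and 1878 of all genes then passed. At an unadjusted p under 0.05, 4 receptors and 864 genes passed. Tlr4 was at -0.00018 with a further quantile normalization and at -0.0036 with median centring. Leaving out 1 array gave -0.0265 to 0.0613 for Tlr4, -0.0183 to 0.20 for Tlr1, -0.0256 to 0.24 for Tlr2 and -0.0177 to 0.18 for Tlr8. It gave 0.17 to 0.34 for Tlr6, which was at 0.12 with array weights, -0.29 to -0.16 for Tlr3, -0.25 to -0.13 for Tlr7, -0.39 to -0.19 for Tlr9 and 0.06 to 0.24 for Tlr13. The endosomal minus surface difference kept its sign, from -0.26 to -0.17 over all alternatives that gave it. The level filter at the 60th percentile left Tlr1, Tlr2, Tlr7, Tlr8, Tlr9 and Tlr13, so class means were not computed there.

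The count of all genes past the threshold, 52, lay between 3 (without diabetic replicate 2) and 70 (without wild type replicate 3) in fits on 5 arrays. With the replicate block, which used the shared replicate numbers, 2 genes passed and the counts of transcription factors, target cytokines and interferon response genes that fell were each 0. Same-numbered arrays correlated in their deviations from the group means by 0.327, -0.0428 and -0.0549, so the numbers are not taken as pairs. Not every array correlated best with its own number. When 1 array was left out, 0 to 1 transcription factor, 0 to 1 target cytokine and 0 to 14 interferon response genes fell past the threshold. The filter at the 60th percentile left 0 fallen target cytokines, because Cxcl10 was then not tested. With array weights the counts were 1 higher and 2 lower for co-receptors, 4 lower for folding and traffic, 1 higher for adaptors and kinases, 3 lower for transcription factors, 1 higher and 2 lower for inhibitors, 3 higher and 2 lower for target cytokines, 2 lower for nucleic acid handling and 2 higher for interferon receptors. The median difference of co-receptors was -0.0190 without a level filter and with all probe sets, -0.0925 with array weights, and -0.24 to -0.00752 when 1 array was left out. Over the same arrays left out, that of folding and traffic ran from -0.10 to -0.0480, of inhibitors from -0.0260 to 0.0558 and of interferon receptors from -0.0166 to 0.0619, and that of the interferon response was -1.14 with array weights. Nfkbia, at 0.13, was at -0.0228 without diabetic replicate 3 and at 0.25 without diabetic replicate 2. Leaving out 1 array also moved the small differences of Lgmn, Cnpy3, Cd180, Lbp, Rel, Relb, Ikbkb, Myd88, Irak3, Sigirr, Ccl3 and Pld4 by over 1.5 times, with no change of sign. The cause of these shifts was not tested unless stated.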

Other observations

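Enzymes that handle nucleic acids, the ligands of the endosomal receptors, had 8 tested members, 3 with a higher and 5 with a lower mean in diabetic marrow and a median difference of -0.05. None had a limma adjusted p under 0.05, while 2, both lower, had an unadjusted p under 0.05, where 3.20% of all genes tested did in that direction and 5.39% had groups apart and lower. Trex1, a DNA exonuclease that interferon induces, had log2 signals of 8.96, 8.94 and 8.93 in wild type and 8.71, 8.54 and 8.71 in diabetic marrow, with groups apart. Dnase1l3, an enzyme that digests DNA in shed particles, had groups apart as well, with 7.52, 7.80 and 8.01 in wild type and 7.31, 7.42 and 7.05 in diabetic marrow. Its diabetic values lay below the level filter of 7.50. The difference of Dnase1l3 was -0.52 ± 0.14 and that of Trex1 -0.29 ± 0.07 (SE, n = 3 per group). Pld4, an endosomal exonuclease, was at -0.10 ± 0.07.

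Interferon receptors and their kinases, the arm that responds to interferon made after Toll-like receptor signalling, had 7 tested members and a median difference of 0.02. None passed the adjusted threshold in limma, while Ifngr1 and Jak2, both higher, had an unadjusted p under 0.05, where 3.98% of all genes tested did in that direction and 6.97% had groups apart and higher. Ifngr1 was at 11.21, 11.25 and 11.18 in wild type and 11.51, 11.45 and 11.29 in diabetic marrow, and Jak2 at 10.11, 10.17 and 10.18 against 10.34, 10.36 and 10.28. In both the groups were apart.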
